A study of Mus musculus with 96 samples.

Results

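The genes described here are 10 components of the Notch pathway, namely the receptors Notch1, Notch2 and Notch3, the ligands Jag1, Jag2 and Dll1, the glycosyltransferase Lfng, the DNA-binding factor Rbpj and the targets Hes1 and Hey1. They were taken by symbol from the 55487 genes of the count table and not by a cutoff on a measured value. Earlier results of these data were known when they were chosen. Of all genes, 14463 had at least 10 counts in at least 10% of cells, and 9 of the 10 Notch genes were among them. Hey1 was the exception. Jag2 was the most abundant of the 10 per transcript length and was counted in all 96 cells, and Hey1 was counted in 2.

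Notch receptors are membrane proteins that bind Jagged and Delta-like ligands on neighbouring cells. Binding leads to cleavage by ADAM proteases and then by γ-secretase, which frees the intracellular domain to enter the nucleus, join RBPJ on DNA and switch on genes of repressors of the HES and HEY families, while fringe enzymes such as LFNG add sugars to the receptor that change its response to each ligand. In the olfactory epithelium (OE) the pathway is known for its part in keeping horizontal basal cells (HBCs) dormant and in the choice between neuronal and sustentacular fates.

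HBCs are reserve stem cells of the OE, and the study asked how far the daughters of 1 HBC division differ. Wild-type HBCs were taken from adult mice 6 to 8 weeks old, 2 days after injection of methimazole, a drug that injures the OE, and were grown as primary cultures. Both daughters of 48 divisions were picked singly by mouth pipette with their pairing noted, and the polyadenylated RNA of each of the 96 cells was sequenced with External RNA Controls Consortium (ERCC) spike-in RNA added to the lysate. All 96 cells thus shared genotype, injury and culture, no other condition was analysed here, and the labels name no mouse or dish, so that the cells were treated as 1 sample, values are given as descriptions without p-values, and intervals cover counting error only.

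The total count on genes ranged from 29454150 to 44849003 per cell, ERCC transcripts took 1.06% to 5.75% of all counts, and 11403 to 14632 genes were counted per cell. A deposited count stood for 75 bases of coverage, so counts are neither reads nor molecules. The HBC markers Trp63, Krt5, Krt14 and Itga6 were counted in all 96 cells, as were all 10 genes of a cell cycle list. Of 5 sustentacular markers, Cyp1a2, Sec14l3 and Ermn were at 0 in all cells, as were Kit of the globose basal list, Cnga2 of the neuronal list, Foxi1 of the microvillous list, Dcn of the mesenchymal list and Cdh5 of the endothelial list. The median summed level of the sustentacular, globose basal, microvillous, ciliated and mesenchymal lists was 0 in TPM, the deposited level scaled to transcript length and library size, and that of the neuronal, immune and endothelial lists was at most 6.49 TPM, although single genes of these lists were counted more widely, such as Pecam1 in 92 cells (median 0.0495 TPM), Adcy3 in 81 (5.30 TPM), Cd68 in 74 (1.11 TPM), Rsph1 in 30, Gap43 in 22, Pdgfra in 15 and Lgr5 in 14. One cell stood apart. Daughter 2 of pair 4 had the lowest median correlation with the other cells, 0.753 against 0.839 for the median cell, and the fewest counts of Krt5 (6760), Krt14 (691) and Itga6 (144) of all cells. It also had the most counts of Cyp2a5 (259709) and Ugt2a1 (174005), enzyme genes named after their values were seen, while the sustentacular marker Cyp2g1 was at 0. Results that rest on this pair are given with and without it.

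Per transcript length, the order of the 10 genes by median TPM was Jag2, Hes1, Jag1, Notch1, Rbpj, Notch2, Dll1, Lfng, Notch3 and Hey1. The interquartile ranges of all neighbours from Jag2 to Notch3 overlapped, and the higher of the neighbouring genes was the more abundant in only 50 cells (Notch2 over Dll1) to 68 cells (Hes1 over Jag1) of 96. Neighbours in this order were therefore not separated by the spread between cells, with the exception of Notch3 and Hey1. Jag2, Hes1, Jag1, Notch1 and Notch2 were counted in every cell, 5 of the 9 genes with enough counts, as were 31.8% of the 14463 genes.

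**Figure D1:**
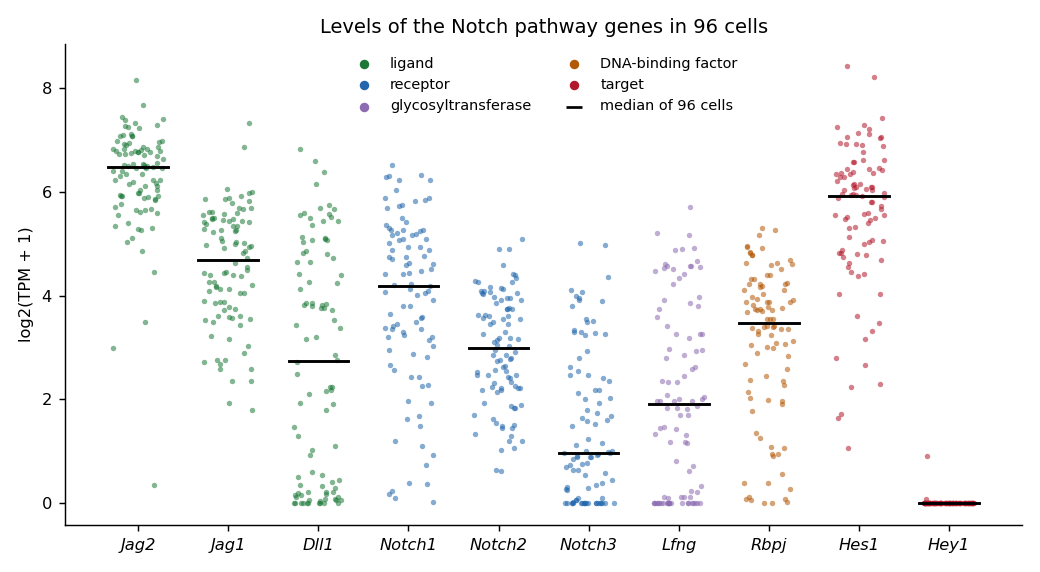
Level of each gene in each cell as log2(TPM + 1), coloured by role, with the median of 96 cells as a black line. Jag2 and Hes1 stand highest, Dll1, Notch3 and Lfng spread from 0 upward, and Hey1 lies at or near 0 in all cells.

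Among the ligands, Jag2 (chr12:112907819-112929776, minus strand, GRCm38) had a median of 87.5 TPM, with a lowest value of 0.279 and a highest of 284. The middle 50% of cells lay between 59.05 and 111.9 TPM, the narrowest relative spread of the 9 genes with enough counts, with a ratio of upper to lower quartile of 1.90. Jag1 (chr2:137081456-137116644, minus strand) ranged from 2.46 to 159 TPM around a median of 24.7. Both Jagged genes were thus present in all cells. Dll1 (chr17:15367354-15376872, minus strand) ranged from 0 to 112 TPM with a median of 5.68, and was counted in 86 of 96 cells (89.6%, exact 95% Clopper-Pearson interval 81.7 to 94.9). Its counts were spread over the whole scale, with 0 counts in 10 cells, 1 to 9 in 11, 10 to 99 in 16 and 100 or more in 59, of which 35 had 1000 or more.

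The share of each gene in the summed TPM of Jag1, Jag2, Dll1, Dll3 and Dll4 shows the makeup of the ligand pool. Jag2 had a median share of 68.1%, Jag1 of 20.7% and Dll1 of 5.56%. Jag2 was the leading ligand in 85 cells, Jag1 in 8 and Dll1 in 3. The leading ligand was the same in both sisters of 41 of 48 pairs, and it was Jag2 in 40 of these.

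Among the receptors, Notch1 (chr2:26457903-26516663, minus strand) had a median of 17.2 TPM with a range of 0.0115 to 90.3. Notch2 (chr3:98013527-98150361, plus strand) ranged from 0.541 to 33.0 TPM around a median of 6.90. Notch3 (chr17:32120820-32166852, minus strand) had a median of 0.950 TPM, a highest value of 31.2, and was at 0 in 20 cells. Notch1 exceeded Notch2 in 68 of 96 cells and Notch3 in 80, so that the order of the receptors differed from cell to cell. Notch1 was the leading receptor in 63 cells, Notch2 in 22 and Notch3 in 11, with median shares in the summed receptor TPM of 58.3%, 27.6% and 3.22%.

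The same receptor led in both sisters of 27 pairs (Notch1 in 23, Notch2 in 3, Notch3 in 1), and different receptors led in the other 21. Different ligands led in 7 pairs, which goes with the lead of Jag2 in most cells. Notch3 was counted in 76 cells (79.2%, interval 69.7 to 86.8). It had 100 or more counts in 62 cells, and in 18 pairs 1 sister only reached that number, in 11 of which the other sister had 0. Notch3 overlaps the antisense gene Gm17276, which had up to 1145 counts and was counted in 20 cells. Whether counting used strand is not given in the sources used here, so that reads of these overlapping genes may not have been told apart. Notch2 overlaps Gm42819 and Gm42820 on its own strand, so that strand would not tell their reads from those of Notch2. They had up to 1308 and 589 counts and were counted in 5 and 37 cells.

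Lfng (chr5:140607320-140615545, plus strand), the fringe enzyme, was counted in 74 cells (77.1%, interval 67.4 to 85.05). Its levels ran from 0 to 50.98 TPM with a median of 2.78. It had 0 counts in 22 cells and 100 or more in 54. Spike-in RNA gives the scale for such zeros, since it was added to each lysate from 1 dilution. The 11 ERCC transcripts with a mean TPM within 2-fold of that of Lfng were counted in 17 to 85 cells, with a median of 45. For Dll1 the corresponding 11 transcripts were counted in 42 to 83 cells, with a median of 71, and for Notch3 the 16 transcripts in 6 to 85 cells, with a median of 17. A 0 of any of these genes in 1 cell is therefore not distinguishable from failure to detect RNA at that level.

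Rbpj (chr5:53466152-53657362, plus strand), the factor that carries the Notch signal to DNA, was counted in 94 cells (97.9%, interval 92.7 to 99.7) at a median of 10.1 TPM and at most 38.2. It shares near-identical sequence with Rbpj-ps3, a processed pseudogene at chr6:46529354-46530794 on the minus strand. Of 1441 aligned bases of the Rbpj coding sequence and the pseudogene, 1437 were identical (99.7%). The 3 windows of 60 bases that hold all 4 differences are printed below, since within the aligned stretch only reads over these bases can tell the genes apart by sequence. The annotation is that of GENCODE on GRCm38, sequences run 5′ to 3′ along the transcript, and capitals mark the bases that differ. The windows of Rbpj are coding bases 418 to 477 (chr5:53642169-53645908, across the junction of exons 4 and 5 of the Rbpj-201 transcript), 1057 to 1116 (chr5:53652658-53652717, exon 9) and 1196 to 1255 (chr5:53653116-53653175, exon 10). Those of Rbpj-ps3 are chr6:46530455-46530514, chr6:46529816-46529875 and chr6:46529677-46529736.
Rbpj, first window: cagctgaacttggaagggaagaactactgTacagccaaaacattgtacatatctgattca
Rbpj-ps3, first window: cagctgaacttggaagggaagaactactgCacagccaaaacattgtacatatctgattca
Rbpj, next window: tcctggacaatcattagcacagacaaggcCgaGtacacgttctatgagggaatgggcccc
Rbpj-ps3, next window: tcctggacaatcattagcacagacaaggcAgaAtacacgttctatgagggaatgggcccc
Rbpj, last window: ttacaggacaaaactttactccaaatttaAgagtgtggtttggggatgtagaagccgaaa
Rbpj-ps3, last window: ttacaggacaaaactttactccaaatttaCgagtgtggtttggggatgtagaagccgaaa

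The pseudogene had a median of 44 counts, at most 247, and was counted in 74 cells. It took a median of 4.05% of the summed count of both genes, and its counts followed those of Rbpj over the 96 cells with a Spearman correlation of 0.83. Reads that fit both genes were not examined, so this share does not bound the uncertainty in the values of Rbpj. The sum of both genes gave nearly the same sister differences (33 in place of 32 pairs at a ratio of 1.5 or more).

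Hes1 (chr16:30064384-30067796, plus strand), a repressor that is the best known direct target of the pathway, was counted in all cells and ranged from 1.09 to 343 TPM around a median of 59.8. The middle 50% of cells lay between 28.0 and 84.6 TPM. Hey1 (chr3:8663359-8667256, minus strand), the other target, was counted in 2 of 96 cells (2.08%, interval 0.253 to 7.32), with 54 counts in daughter 2 of pair 4, the cell that stood apart, and 3 counts in daughter 1 of pair 2. In the other 94 cells its count was 0. Notch2, Jag1, Jag2 and Hes1 reached 10 counts in all 96 cells and Rbpj in 89, so that these 89 cells (92.7%) held a receptor, a ligand, Rbpj and the target at that count. All 3 receptors reached 10 counts in 72 cells and all 3 ligands in 75.

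Sister differences were measured as the ratio of the higher to the lower daughter on spike-in-normalised counts with a pseudocount of 1, and a pair was taken to differ at 1.5-fold or more. Of the 9 Notch genes with enough counts, 8 differed in 24 or more of 48 pairs, as did 79.5% of the 14463 genes. The share of the Notch genes was thus near that of all genes. The median gene differed in 33 pairs. Dll1 differed in 45 pairs (93.8%, interval 82.8 to 98.7), Lfng in 43, Notch3 in 40, Hes1 in 38, Notch2 in 37, Notch1 in 34, Rbpj in 32, Jag1 in 30 and Jag2 in 20 (41.7%, interval 27.6 to 56.8). Among all genes ordered by this number, 13.1% lay below Jag2 and 99.2% below Dll1.

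Spike-in transcripts, which were added alike to the lysates of both sisters, give a technical scale, although they differ from the genes in length. The ERCC transcripts within 2-fold of the mean TPM of each gene differed in a median of 37 pairs for Jag1, Notch1, Rbpj and Dll1, of 36 for Notch2, of 35 for Lfng, of 34 for Jag2 and Hes1 and of 15 for Notch3. Their highest number was 42, or 40 for Jag2 and Hes1. Only Dll1 and Lfng exceeded all spike-in transcripts of their level, by 3 pairs and 1 pair. With size factors from a median of ratios over genes, Dll1 and Lfng differed in 45 and 42 pairs. With a pseudocount of 100 they differed in 40 and 38. With counts scaled to the total on genes they differed in 42 and 38, but a pseudocount of 1 weighs more on that smaller scale. The spike-in numbers are for spike-in-normalised counts with a pseudocount of 1 only, so they are no reference for these other settings. Jag2, Jag1, Notch1 and Rbpj lay below their median, and Notch2 and Hes1 lay above it. Notch3, at 40 pairs, lay far above its median of 15, but these transcripts were counted in a median of only 17 cells. A pair with 0 in both sisters cannot differ, so the spike-in median is a weak reference for Notch3.

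**Figure D2:**
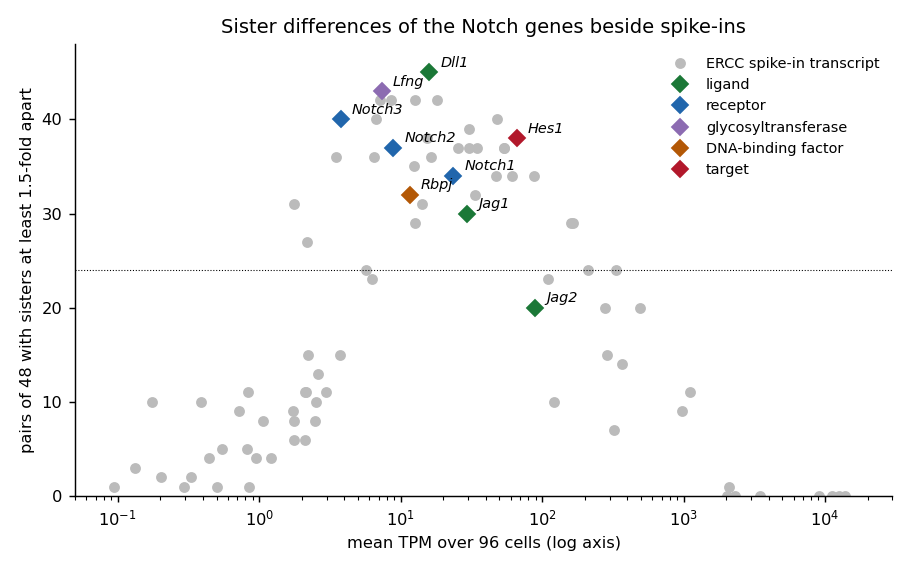
Number of the 48 pairs whose sisters differed 1.5-fold or more against mean TPM over 96 cells (log axis) for 9 Notch genes (diamonds) and the ERCC spike-in transcripts (grey), with a dotted line at 24 pairs. The spike-ins rise to 42 pairs at intermediate levels and fall to 0 at high levels, and most Notch genes lie within their cloud.

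The sizes of the differences ordered the genes in a similar way. Sisters were at least 4-fold apart in 33 pairs for Dll1, 29 for Notch3, 28 for Lfng, 22 for Rbpj, 19 for Notch1, 14 for Notch2, 11 for Hes1, 8 for Jag1 and 4 for Jag2. Among the genes counted in every cell, the median ratio between sisters was 1.44 for Jag2, 1.81 for Jag1, 2.29 for Hes1, 2.32 for Notch2 and 2.53 for Notch1. The low ratio of Jag2 goes with its narrow spread over cells.

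Single pairs show how far the genes could part. In pair 44, Hes1 had 3304 counts in daughter 1 and 37 in daughter 2, Notch1 had 17 and 1775, and Notch3 had 0 and 1569. The daughter with more Hes1 was thus the one with less Notch1 and no Notch3 count, while Jag2 was close in both (3386 and 3896). In pair 46, whose daughters had 19637 and 37 counts of Trp63, Notch3 had 1425 and 0 and Dll1 563 and 0, but Notch1 (5834 and 5372), Hes1 (2346 and 2175) and Jag2 (5335 and 5334) were close. In pair 4, daughter 2 had the fewest counts of Jag2 (37) and Notch1 (3) of all cells and 3 counts of Rbpj, while daughter 1 had the most Hes1 of all cells (13586, against 1007 in its sister).

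Dll1 had wide cases of a gene counted in 1 sister only. Pair 1 had 0 and 3611 counts, pair 40 had 0 and 3074, pair 2 had 0 and 2643, and pair 21 had 1448 and 0. In 10 pairs Dll1 was counted in 1 sister and not in the other, fewer than the 14 pairs each of Lfng and Notch3. In no pair was Dll1 at 0 in both. In 23 pairs 1 sister had 100 or more counts and the other had fewer, against 18 pairs with both sisters at 100 or more and 7 with neither. For Lfng these numbers were 20, 17 and 11, with 0 and 1407 counts in pair 8 and 1147 and 0 in pair 17 as the widest cases.

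**Figure D3:**
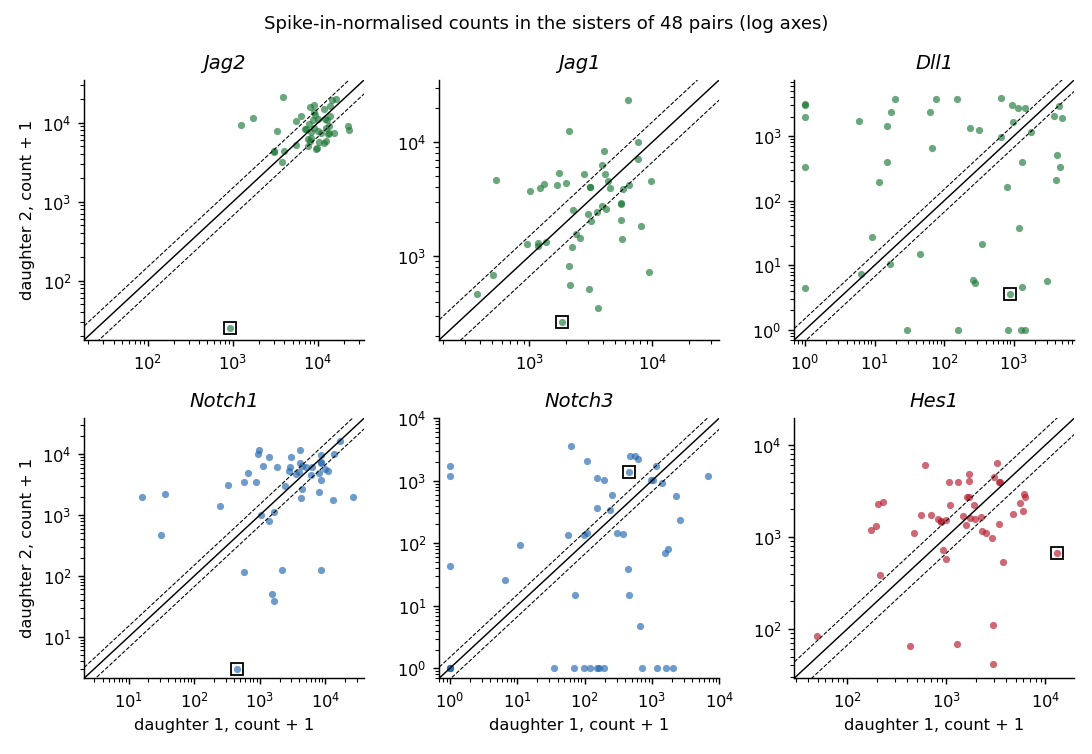
Spike-in-normalised count plus 1 in daughter 1 against daughter 2 for 6 of the genes, 1 point per pair (48 pairs, log axes), with the line of equality, dashed lines at 1.5-fold and pair 4 in a square. Jag2 forms a tight cloud apart from pair 4, and Dll1 and Notch3 have points along both axes.

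The intraclass correlation over pairs on log2(CPM + 1), where CPM is the count scaled to the total on genes, measures how far sisters share a level relative to the spread between pairs, with 1 for identical sisters and 0 for sisters no more alike than other cells. Jag2 was the only Notch gene at 0.5 or more (0.51), a value reached by 4.4% of the 14463 genes, whose median was 0.11. This value rested on pair 4. Both of its daughters were the lowest cells for Jag2 of all 96, at 6.94 and 0.279 TPM, and without the pair the intraclass correlation was 0.17. With each of the 48 pairs left out in turn, Jag2 ranged from 0.17 to 0.58.

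Jag1 was next at 0.37, followed by Notch1 at 0.30, Notch2 at 0.21, Notch3 at 0.19, Hes1 at 0.17, Lfng at 0.12, and Rbpj and Dll1 at 0.05. Jag1 ranged from 0.33 to 0.44 with each pair left out and Notch1 from 0.24 to 0.36, so that these values did not rest on 1 pair. Hes1 fell to 0.03 without pair 11, and Rbpj to -0.07 without pair 15. On the spike-in scale the 52 ERCC transcripts with enough counts lay at 0.01 in the median and at most at 0.60. On the same scale Jag1 was at 0.32, Notch2 at 0.31, Notch1 at 0.31, and the spike-in transcripts of the level of Jag1 reached at most 0.236. Without pair 20, Jag1 fell on this scale to 0.245, close to that highest spike-in value. This scale was set by the spike-ins, so that genes keep differences in RNA content between cells and spike-ins do not. The spike-ins are therefore not a full reference for the genes here. The cells came in 12 sets of 8 by their deposited names, which may be processing batches. Within these sets Jag1 was at 0.38, Notch1 at 0.26 and Notch2 at 0.18.

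Correlations between the Notch genes from cell to cell were weak. Over the 96 cells, on log2(CPM + 1), the 36 combinations of 9 genes had Spearman correlations of -0.23 to 0.25 with a median near 0, 18 above and 18 below. None reached 0.4 in size, a value that 0.0698% of all gene combinations exceeded in the positive and 0.0124% in the negative direction. The central 95% of all gene combinations lay between -0.21 and 0.23. The cells are sisters in pairs and may share processing in sets, so that the 96 points are not independent.

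The highest value was between the ligands Jag2 and Dll1 (0.25), and it was 0.27 over the differences between sisters. In the 19 pairs in which both of these genes differed 1.5-fold or more, the same sister was the higher for both in 15 and opposite sisters in 4. Jag1 and Jag2 had a correlation of 0.17, and the same sister was the higher in 12 of 15 pairs. Notch1 and Notch2 had a correlation of 0.18, with the same sister the higher in 19 of 27 pairs. Over all gene combinations the same sister was the higher in 51.9% of such cases, and over all 36 combinations of the Notch genes in 55.8% (525 of 941).

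The lowest value was between the receptor Notch3 and Lfng (-0.23), which was -0.36 over the differences between sisters. Opposite sisters were the higher in 23 of the 35 pairs in which both differed. With the target Hes1, Notch1 had a correlation of -0.15 over cells (0.02 on spike-in-normalised counts) and -0.19 over sister differences, with opposite sisters the higher in 16 of 27 pairs. Notch2 and Hes1 were near 0 over cells and at 0.20 on spike-in-normalised counts, and Notch3 and Hes1 were at 0.05 and 0.08. The receptor Notch1 and the ligand Dll1 were at -0.05, with the same sister the higher in 15 pairs and opposite sisters in 17, and Notch1 and Jag1 were at 0.03, with 11 and 8. For Notch2 the same sister was the higher in 15 and opposite sisters in 8 pairs with Jag1, and 10 and 6 with Jag2. For Notch3 these numbers were 16 and 8 with Jag1, and 12 and 6 with Jag2. On CPM they were closer, with 14 and 11 and with 8 and 8 for Notch2, and with 15 and 11 and with 12 and 8 for Notch3. Over cells these 4 combinations had correlations of -0.12 to 0.01.

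**Figure D4:**
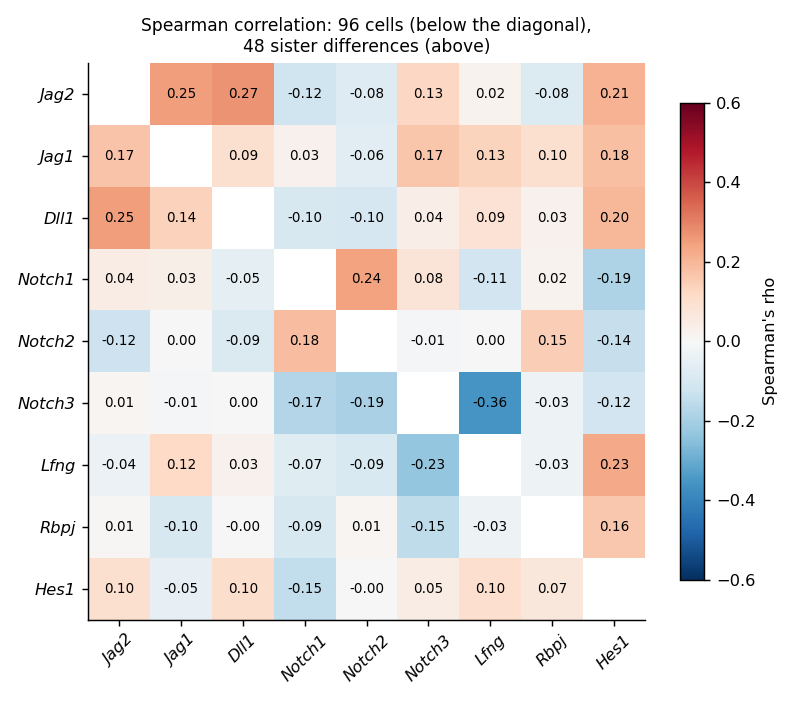
Spearman correlations between 9 Notch genes on log2(CPM + 1), over 96 cells below the diagonal and over the differences within 48 sister pairs above it. Values over cells lie between -0.23 and 0.25, and the darkest field is Notch3 with Lfng over sister differences at -0.36.

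Over the 96 cells no Notch gene reached a correlation of 0.4 in size with the mean level of the HBC markers, the cell cycle genes, the squamous genes or the wound keratins Krt6a, Krt6b, Krt16 and Krt17. Of all other genes with enough counts, 0.263% reached 0.4 or more and 0.0553% reached -0.4 or less with the HBC list, 1.87% and 0.0899% with the cell cycle list, 0.346% and 0.0692% with the squamous list, and 0.436% and 0.38% with the wound keratins. The furthest of the Notch genes was Jag1 with the cell cycle list, at -0.31. With Mki67, the proliferation marker, Jag1 was at -0.38, and at -0.45 over the means of 48 pairs, but at -0.16 over sister differences. Lfng went the other way with the cell cycle list, at 0.28. Jag2 was at -0.28 with the squamous list and -0.29 with the wound keratins, and Notch3 at 0.26 with the wound keratins. With Trp63, the gene whose uneven level between sisters the study followed, the Notch genes lay between -0.14 (Rbpj) and 0.24 (Notch3), and over sister differences between -0.13 (Rbpj) and 0.28 (Notch3).

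These values depended on the scale and on the level of comparison. Over sister differences Jag1 with the cell cycle list was at -0.04, Jag2 with the squamous list turned to 0.18 and Jag2 with the wound keratins was at -0.01. Over the means of 48 pairs Jag2 with the squamous list was at -0.40. It was the only combination of a Notch gene with a list past 0.4 in size in any setting tried. Of single genes, Jag2 with the HBC marker Krt14 was at 0.44 over sister differences and at 0.09 over cells. This value, like that of Jag1 with Mki67 over pair means, is among the furthest of many combinations. The share of all genes that reach 0.4 in size with single genes, over sister differences or over pair means was not measured. On spike-in-normalised counts, which keep differences in RNA content between cells, Jag1 with the cell cycle list was at -0.08, Jag2 with the squamous list at -0.04 and Jag2 with the wound keratins at 0.02. Other combinations were higher on these counts than on CPM. Lfng with the HBC list was at 0.38 (0.24 on CPM), Jag2 with the cell cycle list at 0.36 (0.099) and Notch2 with the HBC list at 0.35 (0.079). Gene counts per spike-in size factor varied 5.81-fold between cells. On that scale 28 of the 36 combinations of Notch genes were positive, with Notch1 and Notch2 the highest at 0.28, and none reached 0.4, against 1.42% of all gene combinations.

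A list of 41 other pathway genes placed the 10 in their setting. Of these, 35 were counted in at least 1 cell, 17 in 90% of cells or more, and 6 in none. The 5 of highest median level were Psenen, a γ-secretase subunit (144 TPM), Aph1a, another subunit (75.8), Snw1, a coregulator that binds the RBPJ complex (73.1), Dlk2, a Delta-like membrane protein (60.4), and Adam10, the protease that cuts the receptor at the cell surface after ligand binding (48.2). Of the 8 protease genes 5 were counted in every cell, a number to be read against the 31.8% of all genes, and Psenen, Aph1a, Adam10 and Adam17 were among them. Ncstn, a further γ-secretase subunit, was counted in 95 cells at a median of 41.4 TPM, Aph1b in 78 at 1.15 and Psen2 in 72 at 3.15.

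Of the 8 other effector genes, most of them of the HES and HEY families, 4 were counted in no cell. Hes5, Hes3, Hey2 and Heyl were at 0 in all 96 cells, as were the fringe gene Mfng and the ligand Dll4. By the approximate limit of 3 of 96, a count of 0 allows a share of up to 3.125% of cells with a count. The exact interval reaches 3.77%. This limits detection and not expression, as the spike-in transcripts above show. Hes6, another HES family gene, was counted in 87 cells at a median of 39.0 TPM, and Nrarp, a feedback inhibitor, in 59 cells at 0.0663. Hes2 and Hes7 were counted in 5 cells each, at up to 33.2 and 4.19 TPM. The receptor Notch4 was counted in 3 cells and the ligands Dll3 and Dlk1 in 1 each. Of the fringe genes Rfng was counted in 91 cells at 34.9 TPM, above Lfng at 2.78. Of the Mastermind coactivators, Maml2 was counted in 91 cells, Maml3 in 64 and Maml1 in 47. Numb, an inhibitor of Notch known for its unequal partition in dividing cells, was counted in 89 cells at 13.2 TPM and differed 1.5-fold or more in 41 pairs.

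Of the 28 other pathway genes with enough counts, 25 differed between sisters in 24 or more pairs, near the share over all genes. Neurl1b, a ubiquitin ligase that promotes ligand endocytosis, was the only one with an intraclass correlation of 0.5 or more, 1 of 28 against 4.4% of all genes. Its value was 0.52, with 0.48 to 0.57 when each pair was left out, and 0.45 on the spike-in scale. Psenen, Aph1a, Adam10 and Snw1 differed in 26, 25, 20 and 21 pairs, numbers like that of Jag2.

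**Figure D5:**
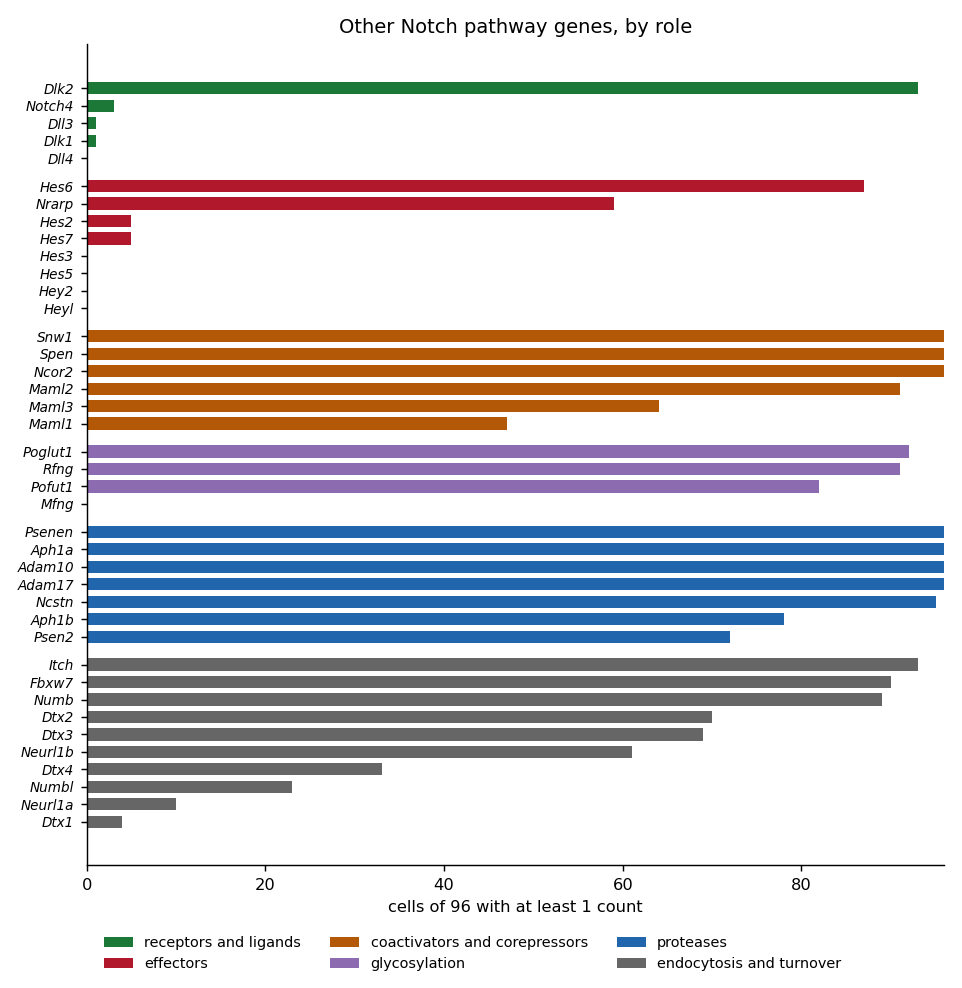
Number of the 96 cells with at least 1 count for each of 40 other Notch pathway genes, coloured by role. The protease genes shown reach 72 to 96 cells, and 4 of the 8 effector genes are at 0.

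For each of the 6 Notch genes counted in 90% of cells or more, the 3 genes of most similar pattern among the 14463 were taken by Spearman correlation over the 96 cells. These are the highest of many values from the same data, and how high such values lie for other genes was not measured. For Notch1 these were Ccng1 (0.57), Ddit4l (0.51) and Serpine2 (0.46), and for Notch2 Igf2bp1 (0.45), Gm9115 (0.41) and H2-Ab1 (0.40). For Jag1 they were Areg (0.52) and Nrg1 (0.48), both ligands of the epidermal growth factor receptor family, and Flrt3 (0.44). For Jag2 they were Nf2 (0.44), Col12a1 and Fxyd3 (both 0.40). For Hes1 they were Txndc15 (0.37), Isg20 and Wdr37 (both 0.36), and for Rbpj, apart from the pseudogene Rbpj-ps3 (0.84), Vcpip1 (0.47) and Uhrf2 (0.39). Without pair 4, 14 of these 18 genes stayed, and Serpine2, Fxyd3, Txndc15 and Uhrf2 were replaced. No Notch gene was among the genes most like another. Over sister differences alone these values were lower for most, such as 0.26 for Ccng1, 0.02 for Serpine2 and 0.28 for Areg, while Nrg1 with Jag1 was at 0.40 and Txndc15 with Hes1 at 0.37. The median counts of Igf2bp1, H2-Ab1 and Col12a1 were 0, so that their likeness rests on the cells in which they were counted.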

How the data were processed

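RNA of 96 single cells was prepared by the G&T-seq method with Smart-seq2 chemistry, which has no molecular identifiers, and ERCC spike-in. Per the labels and the study's methods, the authors trimmed reads with Trimmomatic 0.39, aligned them with STAR 2.7.11a to GRCm38 with Ensembl and ERCC annotation and quantified genes with StringTie 2.2.1. The authors deposited whole-number counts that were not normalized, in 1 table for all cells, and TPM in 1 table for each cell, with ERCC transcripts in the scaling. The deposited count equalled coverage times transcript length divided by 75, tested on single-transcript genes.

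Counts were divided by median-of-ratios size factors over the 22 ERCC transcripts counted in all cells (0.387 to 1.93) for sister ratios, or turned into CPM for intraclass and Spearman correlations. TPM was used to compare genes. Genes needed 10 counts in 10% of cells. Calls were a ratio of 1.5 (pseudocount 1), an intraclass correlation of 0.5 and a Spearman correlation of 0.4. With 1 sample of 1 condition no test was run. Intervals are exact Clopper-Pearson (95%). ERCC transcripts within 2-fold of a gene's mean TPM served as technical reference. No 2 cells held copies of each other (highest Pearson correlation of log2 counts 0.899). Intraclass correlations, ratios and rank correlations were checked on simulated data.

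The genes and lists were chosen with earlier results of these data known. Genes named were the 10 Notch genes, other pathway genes never counted, the 5 of highest median TPM, genes of a class described, the 3 most similar genes of each, and listed markers. The examples of pairs were chosen after their values were seen. One gene of the list of other pathway genes is counted in its totals and is not reported here. Alternatives covered scaling, pseudocounts, cutoffs, filters and the sets of 8. Leaving out pair 4, or each pair, pair means for the marker lists and summing Rbpj with Rbpj-ps3 were added after seeing the data. Python 3.11.15, numpy 2.4.6, pandas 2.3.3 and scipy 1.17.1 were used.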

Additional observations from a re-analysis of the deposited data

How the results depend on the processing

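The number of Notch genes counted in every cell was 5, and 2 when a TPM of at least 1 was required. By spike-in-normalised count in place of TPM, which is not per length, 4 of the 10 genes kept their place in the order of levels. The 1 gene with an intraclass correlation of 0.5 or more, Jag2, was lost (0 genes) with spike-in size factors, a median of ratios over genes, deposited TPM, a pseudocount of 10 CPM, ranks, within sets of 8 cells and without pair 4. Its value was 0.48 to 0.50 in those settings, apart from 0.29 on ranks and 0.17 without pair 4. Of the 18 most similar genes, 9 were kept with spike-in size factors. The number of genes with sister ratios of 1.5 or more in 24 or more pairs was 8 or 9 in all settings at that ratio, and 7 at a ratio of 2. Combinations of Notch genes at a correlation of 0.4 in size numbered 0 in every setting run, and those of a Notch gene with a marker list 0 in every setting but the means of 48 pairs, with 1 (Jag2 with the squamous list, -0.40). For single genes, 62 of 63 intraclass correlations and 75 of 81 numbers of pairs moved by less than their 95% intervals. These intervals are wide, and the fall of Jag2 to 0.29 on ranks lay within its interval. Of the Spearman correlations 6 moved and 44 did not, and of the numbers of cells counted 7 moved and 23 did not. Of the counts of genes, judged by a 1.5-fold change, 11 moved and 26 did not. At 29454150 or more counts per cell, spike-in transcripts of the level of Dll1, Lfng and Notch3 were still counted in a median of 71, 45 and 17 cells, which limits what a count of 0 of these genes can show.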
